A study of Mus musculus with 17 samples.

Results

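The ligands and receptors of the axon guidance families were followed through expression arrays of laser-captured mouse dentate gyrus with and without FOXO transcription factors. They were taken as every gene whose symbol names an Eph receptor, ephrin, class 3 to 7 semaphorin, plexin, neuropilin, Slit, Robo, netrin, Unc5 receptor or Dcc. On the array 151 probe sets carried such a symbol alone, and they stood for 68 of 18193 genes (for each gene its brightest probe set over the arrays without a CA13 mark). By family these were 20 semaphorins, 13 Eph receptors, 9 plexins, 8 ephrins, 5 netrin receptors, 4 Robos, 4 netrins, 3 Slits and 2 neuropilins. KO samples lack Foxo1, Foxo3 and Foxo4 by floxed alleles crossed to hGFAP-cre, which deletes in neurons and glia alike, on a mixed FVB and B6 background. WT samples are labelled wild type for the FOXO genes, and the sources used here do not say whether they carry cre or floxed alleles. There were 8 KO and 7 WT samples. One more array of mark 433 (KO) and one more of mark 437 (WT) carry the added mark CA13, left unexplained by the sources. The labels name brain as the tissue, with the dentate gyrus taken from the study's methods, and give neither age nor sex. Each mark is read as an animal, so that p-values measure only how far these samples spread, and some of that spread may be technical.

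Guidance cues are secreted or membrane-bound proteins that turn, attract or repel a growing axon through receptors on its tip. Slits bind Robo receptors, netrins bind Dcc and the Unc5 receptors, class 3 semaphorins mostly bind neuropilins that signal through plexins, and most other semaphorins bind plexins directly. Ephrins are anchored to the membrane and bind Eph receptor tyrosine kinases on contact. In the adult hippocampus many of these genes stay on, and several differ between the granule cells of the dentate gyrus, whose axons are the mossy fibers, and the pyramidal cells of the CA fields.

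Values are signal intensities on a linear scale, all arrays having the same 2% trimmed mean of 500, and levels below are log2(signal + 32) after quantile normalization over the 17 arrays. A level is never compared between genes, because each probe set has its own response. The median granule-profile signal was under 100 for 18 of the 68 members, and their differences are understated by the added 32. Foxo1 itself, on the brightest of its 4 probe sets, had a level of 7.35 to 9.44 in KO (median 7.79) and 12.33 to 13.95 in WT (median 13.27), a log2 difference of -5.14 (limma, adjusted p = 4.81e-07). The library labelled 433 without the CA13 mark did not share the marker profile of the other unmarked arrays. Its 11 granule neuron markers averaged 8.46 and its 13 CA pyramidal markers 11.14, and in the CA13-marked sample of 437 they averaged 8.38 and 10.94. In each of the other 15 arrays, the CA13-marked sample of 433 among them, the granule markers averaged 11.27 to 11.58 and the CA markers 8.62 to 9.52. Single markers did not all follow. The CA marker Pcp4 read 13.57 (433) and 13.71 (437) in these 2 libraries, below 14.53 to 14.81 in the 15 arrays. Iyd (CA, 8.31 and 7.78) lay inside the range of the 15 arrays, 6.64 to 10.01. So did Il16 (granule, 10.13 and 10.08), at 9.61 to 10.69. The 2 libraries are called CA-profile below and the 15 arrays granule-profile, and KO was compared with WT over 7 and 7 granule-profile arrays without a CA13 mark. Markers of other cells also differed in level between the genotypes, with no test run on them. The oligodendrocyte markers averaged 9.50 to 10.49 in KO (median 9.74) and 8.97 to 10.01 in WT (median 9.59), a mean difference of 0.45. CA3 markers averaged 7.33 to 9.68 in KO (median 9.19) and 7.51 to 9.46 in WT (median 8.22), a mean difference of 0.18. Of the 3 CA3 markers, Iyd had medians of 9.11 in KO and 8.22 in WT, Nectin3 9.13 and 8.69, and Bok 9.10 and 9.13. The 5 newborn neuron markers averaged 8.27 to 9.38 in KO (median 8.83) and 8.64 to 9.78 in WT (median 8.93), a mean difference of -0.30. Their part in the differences below was not tested.

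FOXO proteins bind a core that reads GTAAACA, and 58 of the 68 members had at least 1 RefSeq promoter window (GRCm38.p6, 250 bases before to 50 after a start). None of the 58 held this core on either strand (0 of 58, or 0%), against 1095 of 27025 genes (4.05%). Counting all 8 forkhead versions of it (GTAAACA with T or C next to the first G, C or T before the last A, and A allowed in place of the first G, either strand, overlaps allowed), 11 of the 58 members (19.0%) had a match, against 8203 of 27025 genes (30.4%). These letters say nothing of binding outside the windows. The 250 upstream bases are shown for Slit2 and Sema3e, which come up in both comparisons below, for Plxnd1, the Sema3e receptor, and for Sema5a and Sema6d, which were far dimmer in the CA-profile libraries. Capitals mark a forkhead match. The 2 matches in the Slit2 window lay in its 50 downstream bases and are not printed.
Slit2 (chr5:47982905-47983154, plus strand): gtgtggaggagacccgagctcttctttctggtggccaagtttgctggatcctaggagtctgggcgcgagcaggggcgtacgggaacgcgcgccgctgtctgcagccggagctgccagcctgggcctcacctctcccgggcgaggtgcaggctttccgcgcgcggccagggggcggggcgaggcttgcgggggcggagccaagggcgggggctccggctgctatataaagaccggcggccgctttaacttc
Sema3e (chr5:14025026-14025275, plus strand): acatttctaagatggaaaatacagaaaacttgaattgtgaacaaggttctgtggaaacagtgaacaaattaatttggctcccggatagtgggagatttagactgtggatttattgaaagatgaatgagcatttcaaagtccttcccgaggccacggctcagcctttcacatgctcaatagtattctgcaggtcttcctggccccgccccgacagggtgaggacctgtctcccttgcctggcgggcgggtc
Plxnd1 (chr6:115995006-115995255, minus strand): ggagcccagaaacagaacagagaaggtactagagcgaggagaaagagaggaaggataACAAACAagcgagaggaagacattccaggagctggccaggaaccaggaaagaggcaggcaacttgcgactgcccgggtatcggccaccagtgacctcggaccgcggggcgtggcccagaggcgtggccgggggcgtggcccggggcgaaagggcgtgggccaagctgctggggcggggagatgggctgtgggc
Sema5a (chr15:32244563-32244812, plus strand): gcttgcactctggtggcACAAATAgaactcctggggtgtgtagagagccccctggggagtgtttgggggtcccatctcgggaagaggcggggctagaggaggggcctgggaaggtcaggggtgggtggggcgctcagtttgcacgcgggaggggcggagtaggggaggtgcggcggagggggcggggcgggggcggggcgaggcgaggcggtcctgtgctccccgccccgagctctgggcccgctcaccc
Sema6d, first start (chr2:124089719-124089968, plus strand): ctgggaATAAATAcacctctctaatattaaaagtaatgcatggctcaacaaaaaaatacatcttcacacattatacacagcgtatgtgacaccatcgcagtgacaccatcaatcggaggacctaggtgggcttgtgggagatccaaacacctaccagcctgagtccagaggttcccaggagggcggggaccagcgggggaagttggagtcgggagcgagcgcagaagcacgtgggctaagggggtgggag
Sema6d, second start (chr2:124653331-124653580, plus strand): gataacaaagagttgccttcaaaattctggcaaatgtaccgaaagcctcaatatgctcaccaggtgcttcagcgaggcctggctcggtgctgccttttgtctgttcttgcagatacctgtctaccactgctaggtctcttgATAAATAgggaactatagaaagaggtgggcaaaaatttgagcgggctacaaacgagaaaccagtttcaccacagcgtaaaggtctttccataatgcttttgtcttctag
Sema5a and both starts of Sema6d each held 1 match upstream and Plxnd1 held 1, while the Sema3e window held none.

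The first comparison asked whether loss of FOXO changed these genes in the dentate gyrus. No member passed limma's adjusted threshold (0 of 68, against 6 of 45037 probe sets in all, or 0.0133%), and every member's adjusted p was 1.00. SAM and the methods' t-test after adjustment also called 0. At an unadjusted p under 0.05, limma placed 3 members higher in KO (Slit2, Unc5b and Epha7) and 3 lower (Plxnd1, Epha3 and Sema3e). That is 4.41% of members each way, against 1.8% of all genes higher and 1.78% lower. The 6 became 3 without KO sample 903 and 2 over all 15 unmarked arrays. No share of all genes is given beside these smaller counts, so they say nothing particular to the members. Over the 68 members the median log2 difference was -0.01, against 0.01 for all genes, and single members lay between -0.64 (Sema3f) and 0.73 (Slit2). The 7 arrays a group limit the precision, with a median standard error of 0.23 for members.

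**Figure D1:**
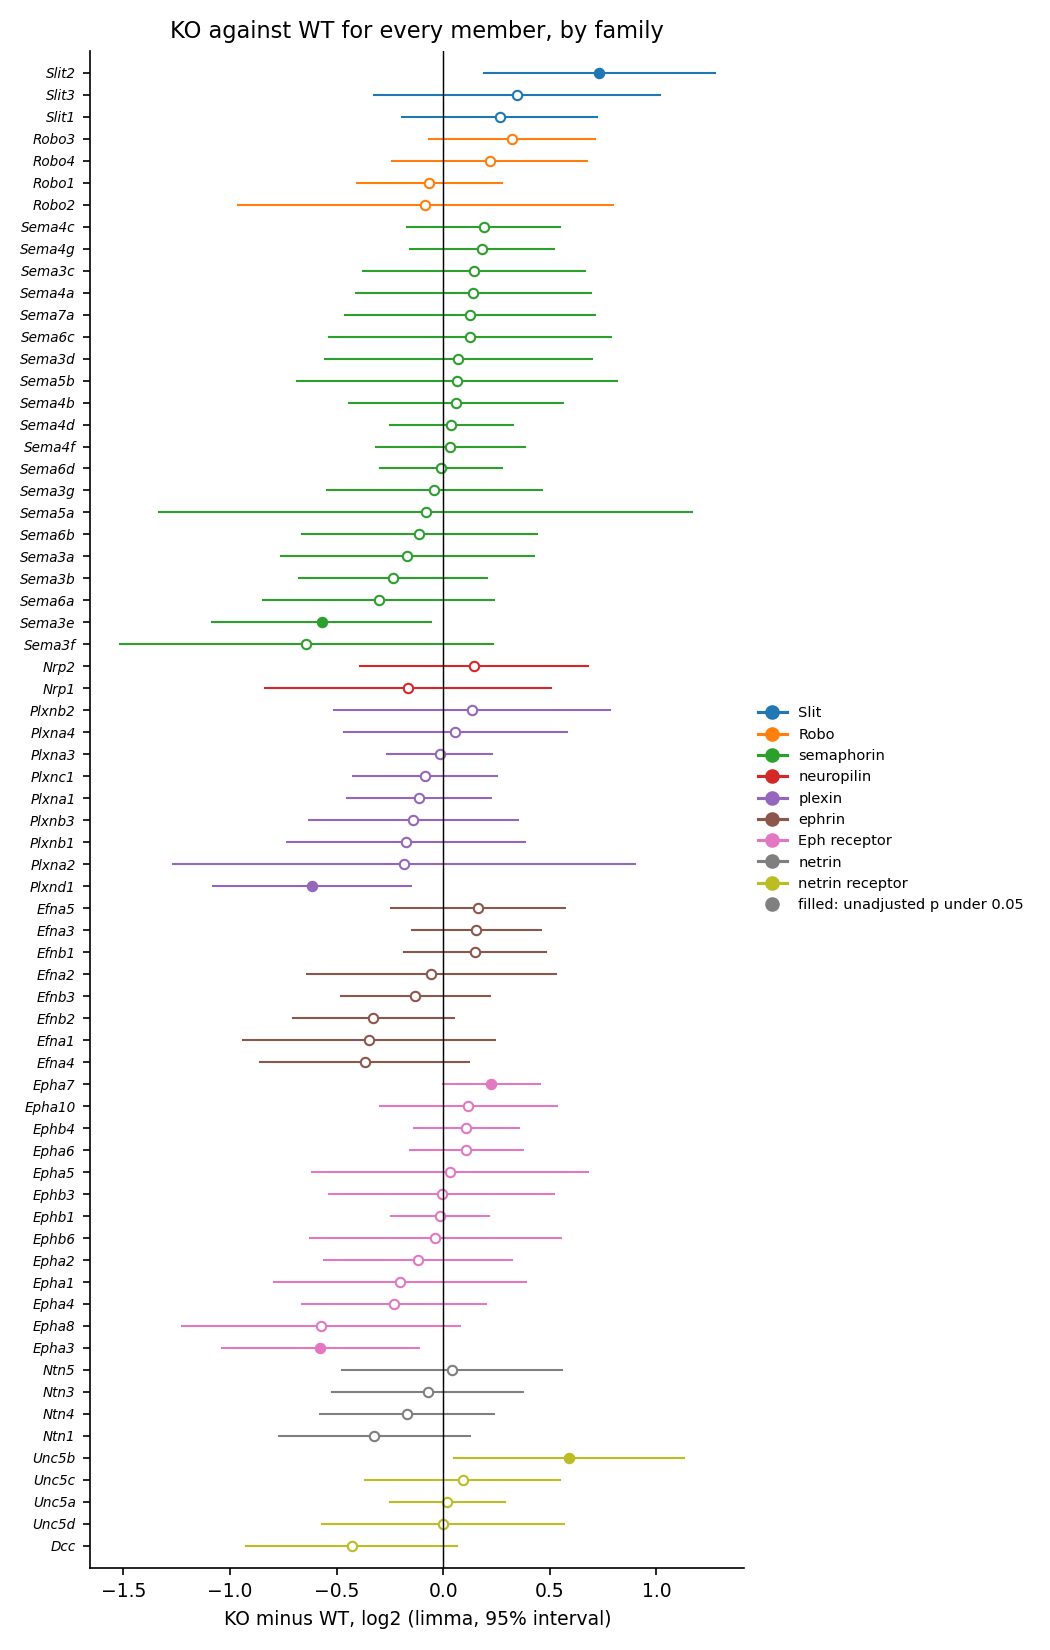
Log2 difference of KO over WT for each of the 68 members, grouped and coloured by family, with 95% intervals from limma (n = 7 each). Filled points mark the 6 members with an unadjusted p under 0.05, and no interval reaches past -1.52 or 1.27.

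Slit2, a secreted repellent of Robo-bearing axons (chr5:47981291-48307735), had the smallest p when each member was read on its brightest probe set. Its level was 9.29 to 10.44 in KO (median 9.88) and 8.51 to 10.05 in WT (median 8.93). The KO samples sat in the upper part of a shared range, and the WT samples fell into 4 low and 3 high values. The log2 difference was 0.73 ± 0.26 (SE), or 1.66-fold, with an unadjusted p of 0.0109 (limma) and 0.0262 by exact two-sided permutation of this value alone. Beside its mark, each label carries 1 of 2 numbers followed by a letter. The sources used here do not explain this number, and it is called the array number only for reference. Of the fitted samples, 5 KO and 5 WT carry the larger number and 2 of each the smaller. The Slit2 difference was 0.87 within the larger and 0.39 within the smaller. Slit2 was also higher in the CA-profile libraries (below). The 13 CA pyramidal markers averaged 8.68 to 9.44 in KO (median 9.15) and 8.62 to 9.52 in WT (median 8.87). The mean difference of these markers was 0.04, and their part in the Slit2 difference was not tested. A dimmer Slit2 probe set read 0.37 and the dimmest -0.08. The other Slits, Slit1 (0.26) and Slit3 (0.35), had unadjusted p-values of 0.237 and 0.291.

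Among the Robo receptors Robo3, known from commissural axons of the hindbrain and spinal cord, had the smallest p, at 8.05 to 8.70 in KO (median 8.42) and 7.45 to 8.79 in WT (median 8.17). Its difference of 0.32 (unadjusted p = 0.0990, limma) kept its KO values inside the WT range. Robo1, Robo2 and Robo4 lay at -0.06, -0.08 and 0.22.

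The semaphorins were centred on no difference, with a median log2 difference of 0.04 over 20 genes. Sema3e (chr5:14025276-14256689), which acts through Plxnd1 without a neuropilin, had a level of 9.02 to 10.34 in KO (median 9.65) and 9.17 to 11.02 in WT (median 10.30). In 6 of 7 WT samples it was above the KO median, and the lowest WT sample lay among the low KO values. The log2 difference was -0.57 ± 0.24 (unadjusted p = 0.0317, limma), and the exact permutation p was 0.0565. It was -0.59 within the larger array number and -0.52 within the smaller. With the library labelled 433 counted as KO the difference was -0.06, because that library read 13.71. Its 3 dimmer probe sets lay at -0.25, -0.20 and 0.00.

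Plxnd1 (chr6:115954811-115995339), the only plexin with an unadjusted p under 0.05, was dim, with a median signal of 15.9 in KO and 43.8 in WT. Its level was 5.27 to 6.34 in KO (median 5.62) and 5.36 to 6.85 in WT (median 6.30), with 1 WT sample among the low KO values and 1 KO sample at the WT median. The log2 difference was -0.61 ± 0.22 (unadjusted p = 0.0124, limma, and 0.0245 by exact permutation). It was -0.80 within the larger array number and -0.15 within the smaller. The neuropilins showed little: Nrp1 lay at -0.16 and Nrp2 at 0.14, with intervals of -0.83 to 0.51 and -0.39 to 0.68.

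**Figure D2:**
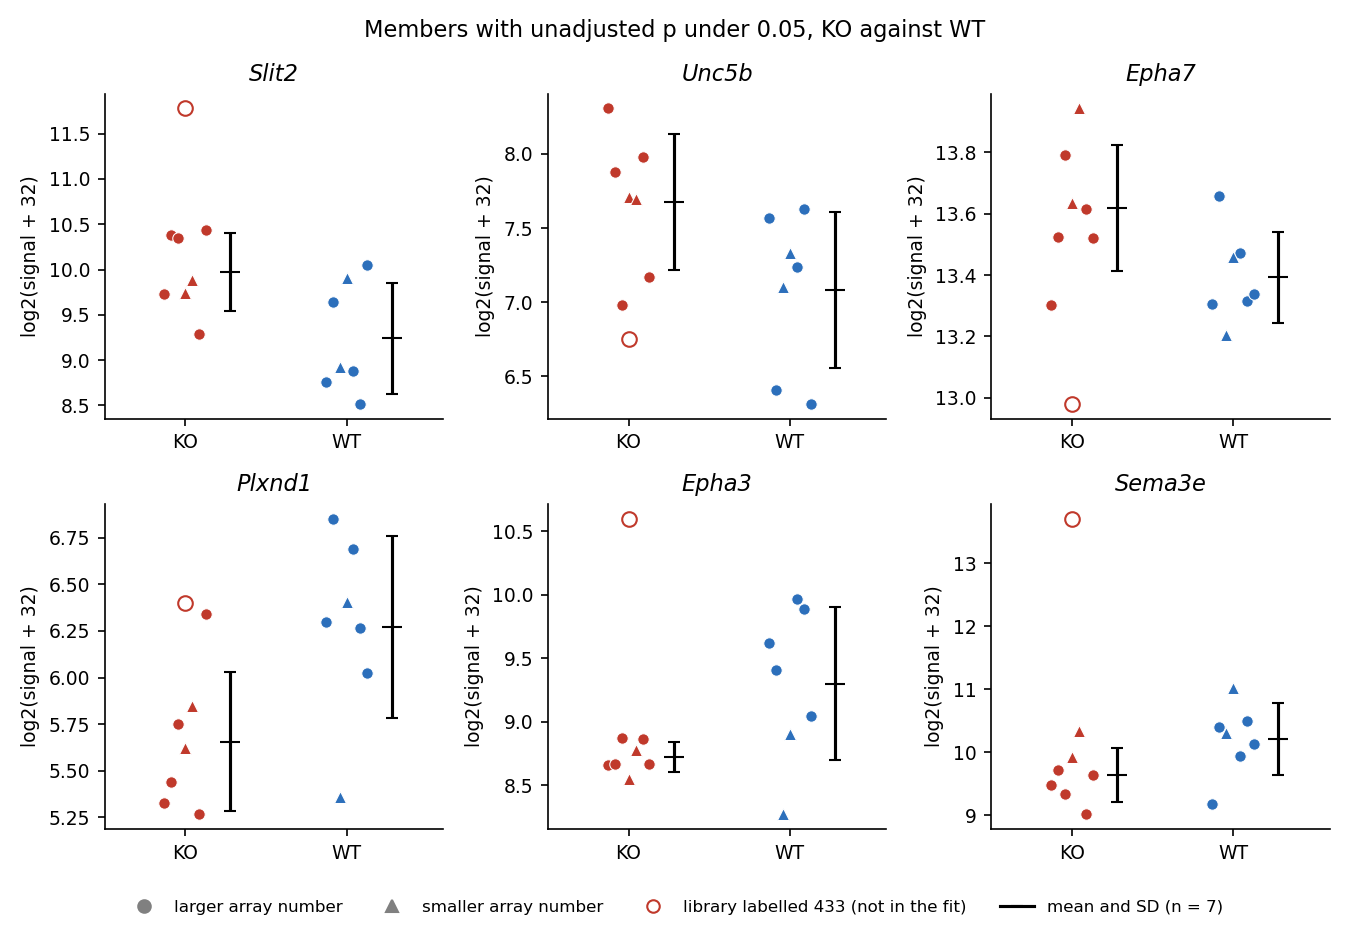
Level, as log2(signal + 32), of the 6 members with an unadjusted p under 0.05 in each of 7 KO and 7 WT arrays, with the mean and SD. Circles and triangles give the array number of the label and the open circle the library labelled 433, which was not fitted. The Epha3 values of KO lie between 8.55 and 8.88, while those of WT spread over 8.27 to 9.97.

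Of the Eph receptors, Epha3 (chr16:63543532-63864175), an A-class receptor, stood out by its spread as much as its mean. The KO samples lay within 8.55 to 8.88 (median 8.67) and the WT samples between 8.27 and 9.97 (median 9.41). Within the larger array number, the KO values of 8.66 to 8.88 were all below the WT values of 9.04 to 9.97, and within the smaller they were not. The log2 difference was -0.58 ± 0.22 (unadjusted p = 0.0176, limma, and 0.0344 by exact permutation). It was -0.84 within the larger array number and turned to 0.08 within the smaller, and with the library labelled 433 counted as KO it was -0.34. Of the 3 other Epha3 probe sets, 1 dim one matched it at -0.59 and the dimmest pair lay at 0.04 and 0.29.

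Epha7 (chr4:28813066-28967503), a receptor of A-class ephrins, was bright and varied little: 13.30 to 13.94 in KO (median 13.62) and 13.20 to 13.66 in WT (median 13.34). The groups overlapped over most of their range. The log2 difference was 0.23 ± 0.11 (unadjusted p = 0.0493, limma, and 0.0350 by exact permutation), with 0.13 within the larger array number and 0.46 within the smaller. Epha8 was close to background, with a median signal of 19.0 in KO and 54.7 in WT (-0.57, unadjusted p = 0.0819). No ephrin had an unadjusted p under 0.05. Efnb2, a transmembrane ephrin that can also signal back into its own cell, came nearest, at 7.21 to 8.17 in KO (median 7.60) and 7.48 to 8.35 in WT (median 7.83), a difference of -0.33 (unadjusted p = 0.0850).

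Of the netrin receptors, Unc5b (chr10:60762594-60831581), which mediates repulsion by netrin, had a level of 6.98 to 8.31 in KO (median 7.71) and 6.31 to 7.63 in WT (median 7.24). In KO, 5 of 7 samples lay above every WT sample. The log2 difference was 0.59 ± 0.25 (unadjusted p = 0.0335, limma, and 0.0472 by exact permutation), with 0.63 within the larger array number and 0.48 within the smaller. Its second probe set read 0.36. Dcc, the receptor of netrin attraction, gave no single direction. The brightest probe set read -0.43 (7.64 to 8.47 in KO and 7.36 to 9.01 in WT, unadjusted p = 0.0838, limma). A dimmer one read -0.82 (unadjusted p = 0.00317, limma, below that of Slit2) and the last 0.37 (unadjusted p = 0.0433, limma). Ntn1, the best known ligand of both, lay near the array's floor (median signal 72.9 in KO and 73.4 in WT, difference -0.32, unadjusted p = 0.146). With the library labelled 433 counted as KO, Slit2 read 0.96, Unc5b 0.47 and Epha7 0.15. With the median over all probe sets of a gene in place of the brightest, Slit2 read 0.40, Unc5b 0.48, Epha7 0.08, Epha3 -0.15 and Sema3e -0.26.

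The second comparison set the CA-profile library of each mark against its granule-profile partner, so that both samples of a pair share a mark. The granule-profile array of WT 437 is in both comparisons. With 1 pair per genotype and profiles read from the marker genes, the differences are a description with no test. The CA13-marked sample is the granule-profile one in 433 and the CA-profile one in 437. At least 2-fold higher in the CA-profile library of both marks were 10 of 68 members (14.7%, against 2.54% of all genes). At least 2-fold lower in both were 2 (2.94%, against 2.23%). Both CA-profile libraries lay above all 15 granule-profile arrays for 13 members (19.1%, against 6.88% of all genes) and below all of them for 4 (5.88%, against 5.25%). The 13 held 9 of the 10 members above, all but Sema3a, together with Dcc, Epha3, Plxnc1 and Sema3d. The 4 were Sema5a, Sema6d, Efnb3 and Epha7.

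**Figure D3:**
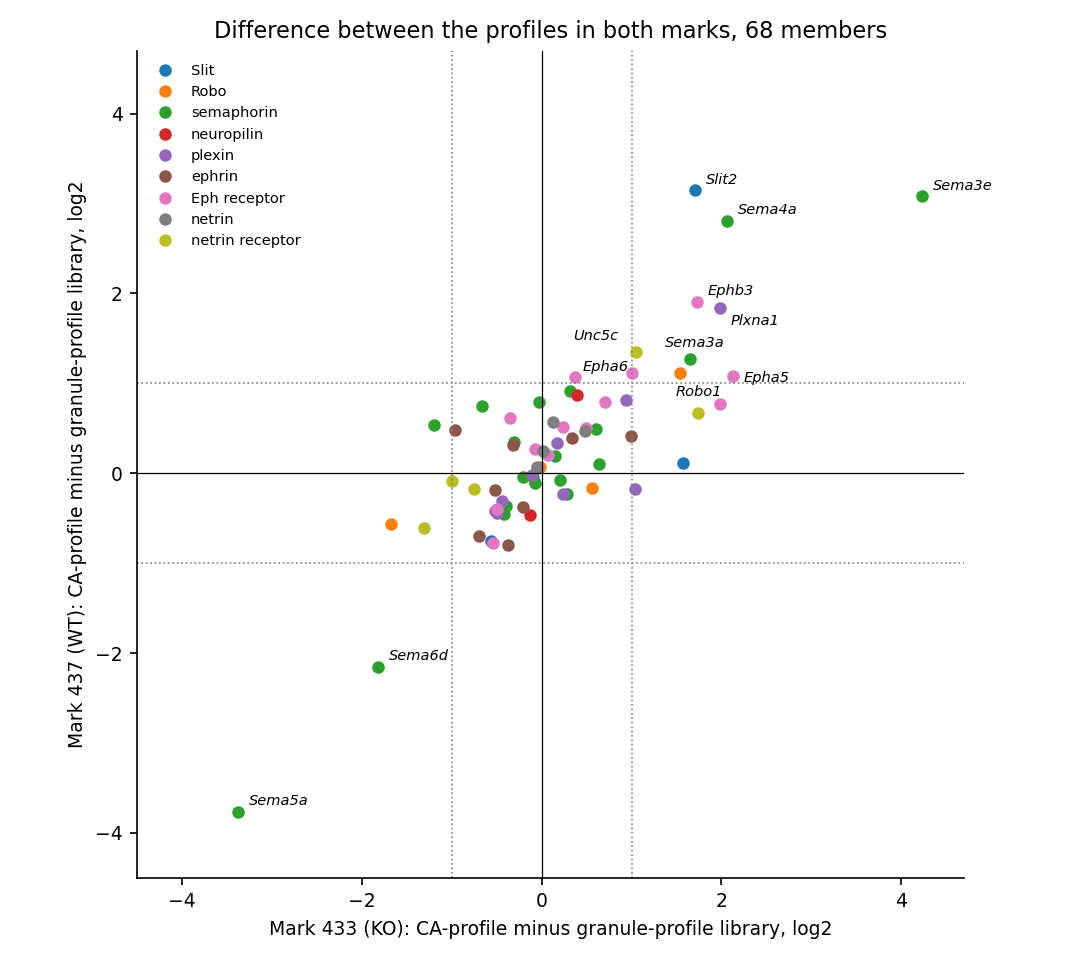
Difference of the CA-profile over the granule-profile library, in log2, for the 68 members in mark 433 (KO, horizontal) and mark 437 (WT, vertical), coloured by family. Dotted lines mark 2-fold, and the 12 named members lie beyond them in both marks, 10 at the upper right and 2 at the lower left.

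Among secreted ligands, Sema3e had the largest difference. Its signal was 14868 in the library labelled 433 and 13418 in the CA13-marked sample of 437, against a granule-profile median of 924.7. On the log2 scale the CA-profile levels were 13.71 and 13.58, above a granule-profile range of 9.02 to 11.02, and the differences were 4.24 in mark 433 and 3.08 in mark 437. All 3 of its dimmer probe sets were also at least 2-fold higher in both marks.

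Slit2 read 11.78 and 11.67 in the CA-profile libraries, above a granule-profile range of 8.51 to 10.44. Its differences of 1.71 (mark 433) and 3.15 (mark 437) were unequal because the granule-profile partners differed, at 10.07 in 433 and 8.51 in 437. A dimmer Slit2 probe set differed by 2.17 and 2.03, and the dimmest by -0.17 and 0.29. Sema3a, the classic neuropilin-binding repellent, read 9.60 and 9.61, which fell inside a granule-profile range of 7.86 to 9.68 (differences 1.65 and 1.27). Its other probe sets, both very dim, differed by 0.11 and 0.65 in mark 433 and by -0.03 and -0.14 in mark 437.

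Sema4a, a membrane-bound semaphorin, read 11.39 and 11.54 against a granule-profile range of 8.73 to 10.50, with differences of 2.06 and 2.81. A dimmer Sema4a probe set differed by 0.41 and 0.88. The membrane semaphorins Sema5a and Sema6d went the other way. Sema6d, which binds Plxna1, was bright and even over the granule-profile arrays, at 10.76 to 11.60, and read 8.94 and 9.29 in the CA-profile libraries (differences -1.82 and -2.15). Sema5a, with the largest difference downwards, read 6.82 and 6.09 against a granule-profile range of 6.88 to 11.85 (differences -3.37 and -3.76). The lowest granule-profile array came close to the CA-profile level. That array carries the smaller array number, under which Sema5a read low (below), while both CA-profile libraries carry the larger. A second Sema5a probe set read -2.24 and -3.02, another -1.13 and -1.14, and the dimmest -0.15 and 0.23. None of the 3 other Sema6d probe sets, all dim, was 2-fold lower in both marks.

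The receptors in the set were Plxna1, Robo1, Unc5c, Epha5, Epha6 and Ephb3, and each was higher in the CA-profile library of both marks. Plxna1, a signalling partner of neuropilins, read 10.51 and 10.06 against a granule-profile range of 7.67 to 8.70 (differences 1.99 and 1.83). A dimmer Plxna1 probe set differed by only 0.60 and 0.003. Robo1, a Slit receptor, read 10.41 and 10.16 against 8.47 to 9.33 (1.54 and 1.12). A second Robo1 probe set differed by 2.52 and 1.95, and the dimmest by 0.37 and 0.19. Ephb3, which binds B-class ephrins, read 9.60 and 9.58 against 7.30 to 8.91 (1.73 and 1.91).

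The remaining receptors lay nearer to the 2-fold line. Unc5c, a netrin receptor for repulsion, read 11.73 and 11.81 against a granule-profile range of 9.72 to 11.18 (1.05 and 1.34), while its second probe set read -0.44 and -0.08. Epha5, a receptor of A-class ephrins, read 11.41 and 11.49, just above the highest granule-profile array at 11.39 (2.13 and 1.08). Epha6 differed by 1.01 and 1.11 but was steady across the granule-profile arrays, at 7.61 to 7.99. Over the 12 members, 8 of their 21 other probe sets were at least 2-fold apart the same way in both marks and 14 shared the direction.

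**Figure D4:**
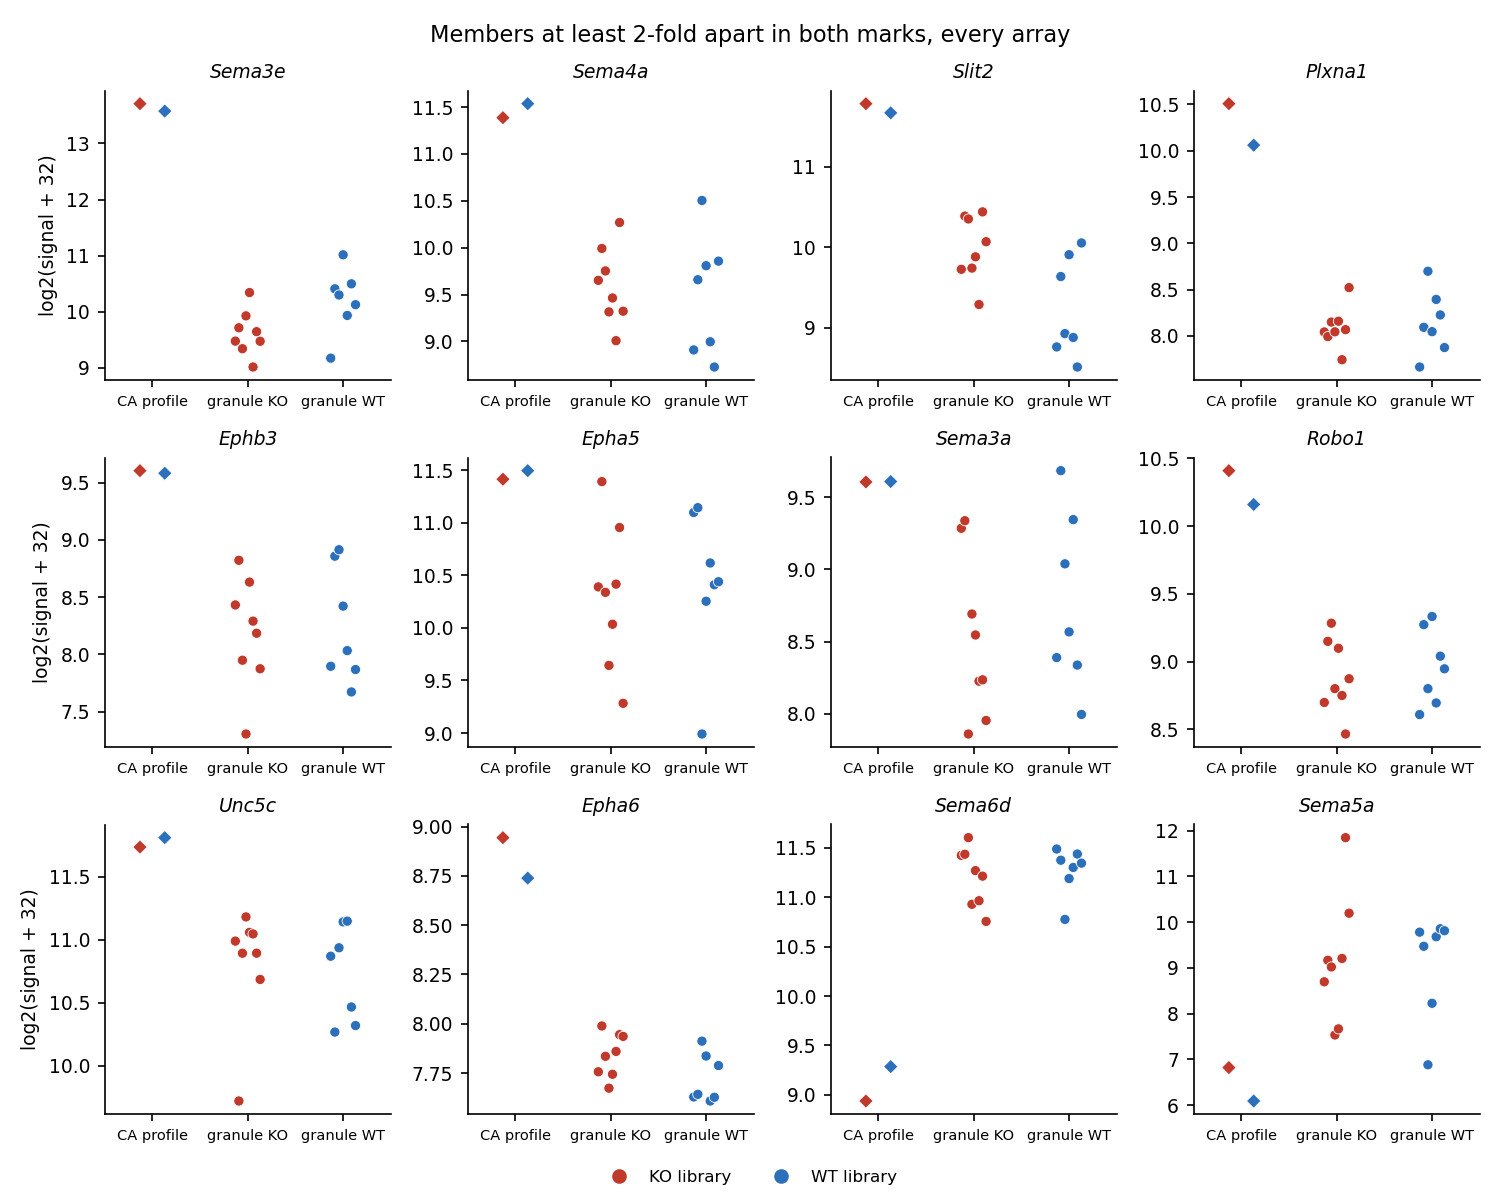
Level, as log2(signal + 32), of the 12 members at least 2-fold apart in both marks, in the 2 CA-profile libraries (diamonds), the 8 granule-profile KO arrays and the 7 granule-profile WT arrays. The Sema3e diamonds stand at 13.71 and 13.58, and those of Sema3a at 9.60 and 9.61 fall within the WT range.

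Some members split by mark. Epha3 and Dcc read 1.98 and 1.74 in mark 433 but 0.77 and 0.67 in mark 437, their CA-profile levels being alike (Epha3 10.60 and 10.66) and their granule-profile partners unlike (8.62 in KO 433 and 9.89 in WT 437). Plxnd1 was 1.03 higher in 433 and 0.18 lower in 437. The ephrins showed no member past 2-fold in both marks, and the neuropilins and netrins none either.

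The array number in the labels touched these genes too. The smaller number marks 4 of the 14 fitted arrays, 2 KO and 2 WT, and the larger number the other 10, and the sources used here do not say what the numbers stand for. In a limma fit with genotype and number, chosen after the values were seen, 10 members were higher in the 4 arrays of the smaller number (14.7%, against 8.22% of all genes) and 9 lower (13.2%, against 5.46%), at an adjusted p under 0.05. With the median over all probe sets of a gene the counts were 7 (10.3%, against 7.45% of all genes) and 4 (5.88%, against 4.47%). A measure of RNA quality and some cell markers also differed in level with the number, with overlapping ranges and no test run on them. The log2 ratio of Gapdh signal at the 3' over the 5' end was 5.11 to 5.37 under the smaller number and 5.04 to 6.41 under the larger, where 8 of 10 arrays lay above 5.37. The newborn neuron markers averaged 9.16 to 9.78 under the smaller number and 8.27 to 9.30 under the larger, the CA pyramidal markers 9.15 to 9.52 and 8.62 to 9.28, and the CA3 markers 9.19 to 9.52 and 7.33 to 9.68. Their part in the differences by array number was not tested. Plxna2, a semaphorin receptor, read 6.90 to 7.66 under the smaller number and 8.28 to 10.62 under the larger (smaller minus larger -1.95, adjusted p = 0.00131). Sema5a read 6.88 to 8.23 and 8.70 to 11.85 (-2.08, adjusted p = 0.00479). In both genes the 2 sets of arrays did not overlap, in KO and in WT alike.

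Robo2 (-1.28), Nrp1 (-1.01), Epha5 (-0.99) and Nrp2 (-0.77) were also lower under the smaller number, and Sema5b (1.09), Sema7a (1.00), Plxnb2 (0.96) and Sema4b (0.75) higher. Epha4 was lower too (-0.66, adjusted p = 0.0114, limma), and its other probe sets lay at -2.67, -2.19, -1.37 and 0.32. Other probe sets of the same gene did not always follow. A second Sema5a probe set was called the other way (0.39, adjusted p = 0.0294, limma). The other Plxna2 probe sets lay at 0.34, 0.04 and -0.65, the last of them called as lower (adjusted p = 0.0110, limma). Both genotypes held 2 arrays of the smaller number, and the fit with array number as a term called 0 members for KO against WT. Sema5a and Plxna2 had the largest SDs of the members over the 14 arrays (1.24 and 1.07, against a member median of 0.46 and 0.37 for all genes), and their KO against WT intervals were accordingly wide (-1.33 to 1.17 and -1.27 to 0.90).

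**Figure D5:**
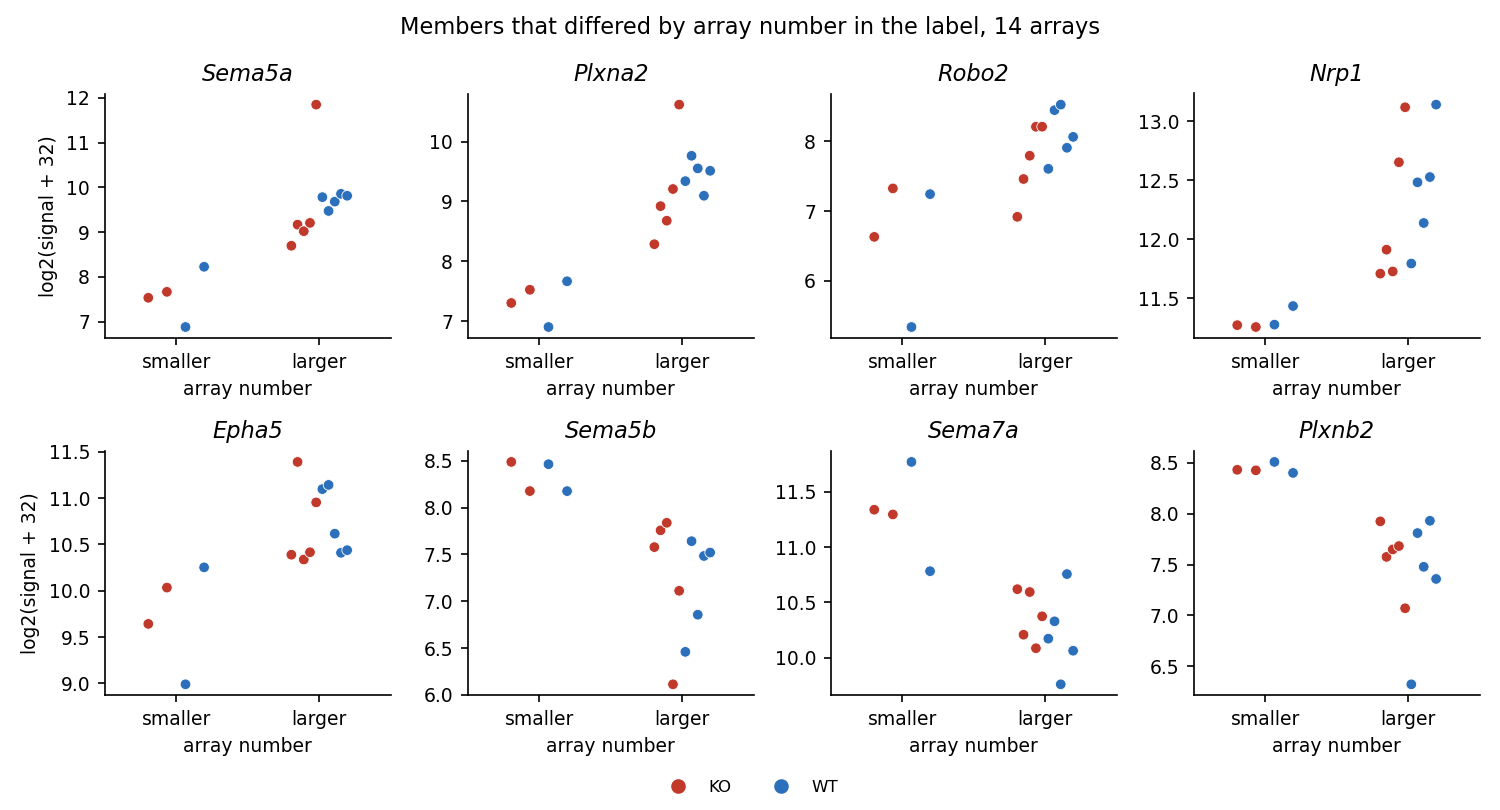
Level, as log2(signal + 32), of 8 members that differed by the array number in the label, in the 4 arrays of the smaller and the 10 of the larger number, coloured by genotype. The Plxna2 values of the smaller number end at 7.66 and those of the larger start at 8.28.

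Genes that carry guidance signals inside the cell or assist the receptors were read from a list of 72, of which 69 were measured. None was called for KO against WT by limma, and their median log2 difference was 0.00. At an unadjusted p under 0.05, 1 was higher in KO and 1 lower (1.45% each, below the 1.8% and 1.78% of all genes), so their values are given as a description. Nck2, an adaptor of Eph receptors, read 9.28 to 9.96 in KO (median 9.76) and 8.98 to 9.72 in WT (median 9.30), a difference of 0.34 (unadjusted p = 0.0374). Limk1, a kinase that acts on cofilin, read 8.98 to 10.22 in KO (median 9.79) and 9.71 to 11.23 in WT (median 10.18), a difference of -0.49 (unadjusted p = 0.0402). Both pairs of ranges overlapped. Between the profiles, 1 of the 69 was at least 2-fold higher in both marks and 1 lower. That is 1.45% each, below the 2.54% and 2.23% of all genes, so these too are a description. L1cam, an adhesion molecule and semaphorin co-receptor, was higher in the CA-profile libraries (12.16 and 12.01, against 10.42 to 11.22). Tiam1, a Rac activator downstream of Eph receptors, was lower, at 9.85 and 9.53 against 13.32 to 13.97, differences of -4.12 and -4.11.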

How the data were processed

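By the study's methods, RNA of laser-captured dentate gyrus had been hybridised to Affymetrix mouse arrays. The 2 CA-profile libraries did not show the granule marker profile of the others. The authors deposited linear signal intensities, 1 per probe set and array. MAS5 is the tool in the submitters' processing notes, and the study's methods name RMA and SAM. All 17 columns were used. Probe sets were named from the platform annotation, with coordinates from RefSeq genes of GRCm38.p6. The sources used here give no build for the probe sets. Control probe sets (64) were dropped, and log2(signal + 32) was quantile normalized over the 17 arrays. limma 3.58.1 (R 4.3.3, eBayes with trend) was fitted to 45037 probe sets, without a filter, over 7 KO and 7 WT arrays, with Benjamini-Hochberg adjustment. Single values were also permuted over all 3432 splits, for which the smallest p is 0.000583. The script was tested on simulated data.

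The members and lists were chosen with earlier results of these data known. Members were named at an unadjusted p under 0.05, up to the 10 smallest, at 2-fold in both marks, or as first of their family. Alternatives covered samples, pseudocount, normalization, a signal filter, array number, RNA quality, array weights, SAM, a t-test, the summary of probe sets and leaving out each sample.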

Additional observations from a re-analysis of the deposited data

Results flagged for a closer look

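Of 46 groups of 7 samples, KO and WT for each of 23 named members, 8 had 1 sample far from the others. The cutoff gives about 1 in 20 for independent groups of normal values, but these groups share the same 14 arrays. No share of all genes was computed, so the count shows no excess in the members. In KO the far samples were Dcc in sample 384 (8.47, next 7.97), Unc5c in 384 (9.72, next 10.89), Plxna1 in 903 (7.74, next 7.99), Ntn1 in 903 (5.67, next 6.54) and Sema5a in MS15 (11.85, next 9.21). In WT all 3 were sample 392, whose array carries the smaller number, with Epha5 at 8.99 (next 10.25), Sema6d at 10.78 (next 11.19) and Ntn1 at 7.59 (next 6.93). Plxnd1 differed between the profiles in opposite directions in the 2 marks, 1.03 in mark 433 and -0.18 in mark 437, and this difference was not tested.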

How the results depend on the processing

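The count of called members was 0 under every alternative, within both array numbers and without any 1 sample. The count at an unadjusted p under 0.05 was 6, against 2 over all 15 unmarked arrays (the CA-profile library labelled 433 counted as KO) and 3 within the smaller array number. Leaving out each sample gave 3 to 8, with 3 without KO sample 903. No share of all genes is given beside these counts. The median difference over the members was -0.0454 to 0.0133 when each sample was left out. Epha3 turned to 0.0769 and Dcc to 0.0595 within the smaller array number, and Dcc to 0.359 with the median over its probe sets. The other 285 values of the 10 members with the smallest p kept their direction and stayed uncalled. Between the profiles, the 10 higher and 2 lower members became 14 and 4 at 1.5-fold, 2 and 1 at 4-fold, and 6 and 1 with the median over all probe sets of a gene. The shares of all genes at these settings were not computed, so the counts alone show no excess of members there. Beyond the granule-profile range the members were 13 and 4 (shares given above). With the direction of mark 433 turned, its CA13-marked sample minus the library labelled 433, the counts were 0 and 0. With a larger pseudocount the array number calls were 11 higher (16.2%, against 8.65% of all genes) and 9 lower (13.2%, against 5.31%). Without quantile normalization they were 9 higher (13.2%, against 7.79%) and 9 lower (13.2%, against 5.13%). No paired analysis was possible because the KO and WT groups share no sample mark. Dim members near the floor, of which 18 had a signal under 100, carry the least information, and RMA could not be run on these values.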
